A study of Mus musculus with 4 samples.

Results

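Regulatory T cells (Tregs) are CD4 T cells that restrain other lymphocytes, and 10 genes tied to their identity and to their means of suppression were followed here, of 32285 genes in the deposited tables. The members were chosen by name, with earlier results of these data known. Foxp3, Ikzf2 and Ikzf4 encode transcription factors, and Lrrc32, Nrp1 and Itgb8 encode surface proteins. Il10, Tgfb1, Ebi3 and Entpd1 encode secreted cytokine chains or, for Entpd1, an enzyme of the cell surface. All 10 were found in the tables. They were read in 4 gates set on UMIs (unique molecular identifiers, each standing for 1 captured RNA molecule). CD4 T cells held at least 1 UMI of Cd3e and of Cd4 and none of Cd8a or Cd79a, and were split into cells without and with an Il2ra UMI. CD8 T cells held Cd3e and Cd8a but neither Cd4 nor Cd79a, and B cells held Cd79a but no Cd3e.

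Single cells came from draining lymph nodes of wildtype C57BL/6 mice. The 2 EV libraries came from mice given 100 µg of iPSC EVs, extracellular vesicles shed by induced pluripotent stem cells, under the skin. For its cultures of mouse immune cells the study describes the iPSC EVs as human. Its methods do not name the cell line behind this injection. The 2 Control libraries are labelled as having no treatment, whereas the study's methods describe an injection of saline. The design text places the harvest at day 5, whereas the sample labels state a treatment duration of 24 hr, and how many mice went into each library is not given in the sources used here. The study proposed that EVs lower the kinase gene Cdk8 and turn CD4 T cells into Tregs. Its evidence for more Tregs was flow cytometry of Foxp3 protein, in mouse and human T cell cultures and in a mouse model of diabetes. In that model the study reported the rise in draining nodes, pancreatic nodes and spleen for EVs held in a hydrogel that slowed their release. For EVs alone it reported a smaller rise in pancreatic nodes. No hydrogel is named in the methods for the lymph nodes sequenced. The study also reported lower CDK8 by qPCR in human CD4 T cells. The comparison of EV with Control below reads only RNA of the members in wildtype lymph nodes. It thus differs from those assays in measure and setting and does not repeat them.

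Foxp3 is the factor that sets and keeps Treg identity, and in its absence mice develop fatal autoimmunity. Tregs display Il2ra, the high-affinity chain of the interleukin-2 receptor, throughout life, while other CD4 T cells gain it only after activation. They hold back other cells through cytokines such as interleukin-10, transforming growth factor beta and interleukin-35, through breakdown of extracellular ATP, and through competition for interleukin-2. Conversion of a naive CD4 T cell into a Treg is marked by a gain of Foxp3 RNA, which STAT5 downstream of the interleukin-2 receptor helps to switch on.

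Foxp3 lies on chromosome X from 7573644 to 7595245 on the plus strand of GRCm38 (GENCODE M21). In that annotation it overlaps Flicr, a noncoding gene on the same strand, and Ppp1r3f, Gm36995 and Ccdc22 on the opposite strand. How reads in the shared stretches were counted is not given in the sources used here. RefSeq start windows (250 bases before to 50 after a start, GRCm38.p6) were found for 6 of the 10 members, 8 windows in all. Both windows of Foxp3 are shown because the question of conversion turns on that gene. Capitals mark a TATA box (TATAAA) in the first, chrX:7579426-7579725, and a STAT motif (TTCNNNGAA) in the second, chrX:7580233-7580532, both on the plus strand.
Foxp3 window 1: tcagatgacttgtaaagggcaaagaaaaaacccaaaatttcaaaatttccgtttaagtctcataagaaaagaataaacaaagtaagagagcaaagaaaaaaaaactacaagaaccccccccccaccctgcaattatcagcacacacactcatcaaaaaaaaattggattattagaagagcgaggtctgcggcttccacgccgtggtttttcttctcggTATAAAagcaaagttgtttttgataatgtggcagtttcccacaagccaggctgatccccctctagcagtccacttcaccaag
Foxp3 window 2: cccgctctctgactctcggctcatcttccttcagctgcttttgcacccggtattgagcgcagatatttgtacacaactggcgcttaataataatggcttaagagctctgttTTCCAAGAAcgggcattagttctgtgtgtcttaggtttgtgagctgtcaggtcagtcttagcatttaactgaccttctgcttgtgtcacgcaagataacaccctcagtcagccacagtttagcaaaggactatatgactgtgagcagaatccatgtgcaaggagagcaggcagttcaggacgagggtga
Among all 32851 windows of that length, TATAAA was present on either strand in 13.6%, TTCNNNGAA in 8.30% and the forkhead motif GTAAACA in 3.65%. Of the 8 windows of members, 1 held the first, 1 the second and 0 the third. These matches describe the letters only.

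The 4 libraries held 50749656 to 70418672 UMIs, and 7891 to 8529 cells per library passed the limits on genes, UMIs and mitochondrial share. The 4 gates took 74.7% to 83.2% of those cells. CD4 T cells without an Il2ra UMI numbered 1275 and 1502 in Control and 856 and 1171 in EV, and those with one numbered 108 and 122 in Control and 67 and 96 in EV. The median depth of CD4 T cells without an Il2ra UMI was 6004 and 6993 UMIs in Control against 8304 and 7499 in EV, so a share of cells with a UMI was read in EV at greater depth. Of 6 T cell markers that set no gate, the summed level was 3749 to 4711 CPM (UMIs of a gene scaled to a common library size) in both CD4 gates and 48.8 to 94.4 in B cells. Of 6 B cell markers, it was 10021 to 11792 CPM in B cells and 15.96 to 34.04 in the CD4 gates. Any 2 libraries shared 11 to 24 cell barcodes.

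Foxp3 RNA was concentrated in the CD4 T cells that also held an Il2ra UMI. In that gate 63.0% and 52.5% of Control cells and 61.2% and 44.8% of EV cells held a Foxp3 UMI, which is 68 of 108, 64 of 122, 41 of 67 and 43 of 96 cells. Without an Il2ra UMI the share among CD4 T cells was 2.12% and 1.93% in Control and 1.52% and 1.88% in EV. Among CD8 T cells it was 0.951% and 0.591% in Control and 0.598% and 0.590% in EV. In B cells, which should lack the gene, it was 0.199% and 0.240% in Control and 0.123% and 0.0698% in EV, at a median depth of 4142 to 5811 UMIs. The share in CD4 T cells without an Il2ra UMI therefore stood above that of B cells in every library, and the share in the Il2ra gate stood far above both. As a level, Foxp3 reached 220 and 182 CPM in Control against 240 and 143 in EV in the Il2ra gate, against 4.17 to 6.01 CPM in CD4 T cells without an Il2ra UMI.

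**Figure D1:**
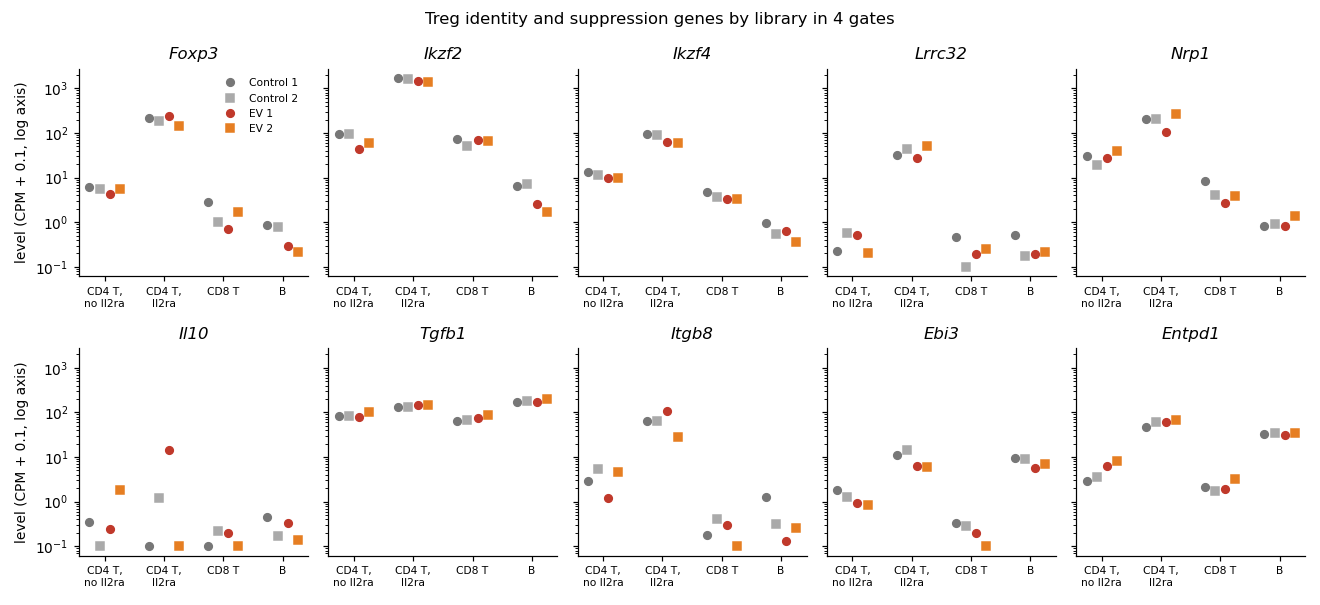
Level of each member (CPM plus 0.1, log axis) in each library and gate, with grey for Control and red or orange for EV. Foxp3, Ikzf2, Ikzf4, Lrrc32, Nrp1, Itgb8 and Entpd1 stand highest in CD4 T cells with an Il2ra UMI, while Tgfb1 is spread over all 4 gates and highest in B cells.

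The members stood higher in CD4 T cells with an Il2ra UMI than in those without. Over 13305 tested genes 18.2% differed in either direction between these gates, and 9 members were tested and higher. Lrrc32 passed the filter on low counts only through the Il2ra gate, and Ebi3 did not pass it in that gate alone. The other 7 members passed the filter in each gate on its own and all 7 were higher, with a median difference of 3.39 on the log2 scale, where 24% of the 7890 genes that passed in both gates differed and their median was -0.04. Foxp3 was 32.5-fold higher (log2 difference 5.02, SE 0.23, adjusted p = 3.06e-11 by edgeR), with the 4 libraries as blocks. Of the other identity factors, Ikzf2, which encodes Helios, was 19.1-fold higher (adjusted p = 3.55e-11 by edgeR), and Ikzf4, which encodes Eos, was 6.21-fold higher (adjusted p = 1.49e-10 by edgeR). Of the surface proteins, Nrp1, a semaphorin co-receptor, was 6.03-fold higher and Itgb8, the integrin chain that frees active transforming growth factor beta, was 16.01-fold higher. Entpd1 encodes CD39, which breaks down extracellular ATP, and was 10.5-fold higher. Ebi3, one chain of interleukin-35, was 7.50-fold higher. Tgfb1 differed least, at 1.42-fold (log2 difference 0.51, SE 0.07, adjusted p = 5.38e-05 by edgeR).

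Lrrc32, which encodes GARP, the docking protein for latent transforming growth factor beta, was close to its detection floor outside the Il2ra gate. It had 31.3 and 44.5 CPM in Control against 27.9 and 49.96 in EV in the Il2ra gate. Lrrc32 in CD4 T cells without an Il2ra UMI had 1 and 5 UMIs in Control and 3 and 1 UMIs in EV, so no fold is given. Il10, the suppressive cytokine, passed the filter on low counts in none of the gates. Its UMIs in CD4 T cells without an Il2ra UMI were 2 and 0 in Control and 1 and 16 in EV, and 12 of those 16 came from 1 cell. The Il2ra gate held 0 and 1 in Control and 9 and 0 in EV, the latter in 4 cells of the first EV library. Il10 thus exceeded 3 UMIs in 1 EV library per CD4 gate, a different one in each. Between EV and Control it was called in 1 fit only, that of CD4 T cells without an Il2ra UMI with EV replicate 1 left out, where the EV value is that single library with 12 of 16 UMIs in 1 cell.

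Compared with CD4 T cells without an Il2ra UMI, B cells held some members at higher levels and others at lower ones. In B cells Tgfb1 was 2.01-fold higher than in CD4 T cells without an Il2ra UMI (log2 difference 1.01, SE 0.05, adjusted p = 5.52e-13 by edgeR). Ebi3 was 6.70-fold higher (log2 difference 2.74, SE 0.21) and Entpd1 6.34-fold higher (log2 difference 2.67, SE 0.15) in B cells. Entpd1 stood at 32.5 and 33.9 CPM in Control against 30.7 and 34.4 in EV B cells, about as tightly as any member. Foxp3, Ikzf2, Ikzf4 and Nrp1 were lower in B cells than in CD4 T cells without an Il2ra UMI. Itgb8 was lower too, but it did not pass the filter on low counts in B cells alone. It had 16 and 3 UMIs there in Control and 1 and 4 in EV. Over all tested genes 66.5% differed between these gates, and of the 7 members that passed the filter in each gate on its own 3 were higher and 4 lower. For CD8 T cells 29.3% of tested genes differed, and of the 6 members that passed in each gate 5 were lower and 0 higher. Ikzf2 was the exception, with no difference past the threshold. It had 73.1 and 51.8 CPM in Control against 70.6 and 65.0 in EV CD8 T cells, a log2 difference of -0.10 (SE 0.19) from CD4 T cells without an Il2ra UMI (edgeR adjusted p = 0.756), which became 0.54 once cells with a Foxp3 UMI were left out. The spread of that gene over cells differed between gates, since 14.7% to 16.9% of CD8 T cells held an Ikzf2 UMI against 5.79% to 6.41% of CD4 T cells without an Il2ra UMI.

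Within CD4 T cells 8 of the 9 other members were found in a larger share of the cells with a Foxp3 UMI than of those without, in each library. That comparison was not made over all genes. Ikzf2 was found in 77.9% and 76.3% of Control and 72.2% and 72.3% of EV cells with a Foxp3 UMI, and in 6.53% to 7.07% of those without. Ikzf4 was found in 35.4% to 47.4% against 5.74% to 6.90%, and Nrp1 in 33.3% to 58.5% against 4.31% to 7.99%. Itgb8 was found in 18.5% to 21.1% against 0.115% to 1.25%. Lrrc32 was found in 12.6% and 19.4% of Control and 24.1% and 26.2% of EV cells with a Foxp3 UMI, and in 0.230% to 0.588% of those without. Tgfb1 differed little, at 46.3% to 60% against 36.6% to 46.9%. Cells with a Foxp3 UMI numbered 95 and 93 in Control and 54 and 65 in EV, and their median depth was 6921 to 8268 UMIs against 6007 to 8363 in the others. Among the 9391 genes of at least 5 CPM in the Il2ra gate, the 5 whose level followed that of Foxp3 most closely over the 16 sums of 4 libraries and 4 gates were Gsta4, Flicr, Ankrd6, Apol9b and Smap1, with Pearson r of 0.988, 0.988, 0.982, 0.980 and 0.979. Flicr overlaps Foxp3 on the same strand. Of the members, Itgb8 ranked 11th at 0.970, Ikzf4 31st at 0.956, Lrrc32 38th at 0.951, Nrp1 75th at 0.931 and Ikzf2 107th at 0.918. Entpd1 was at 0.512, Ebi3 at 0.422 and Tgfb1 at 0.02. The 16 points share libraries and fall into 4 gates, so these values describe the contrast between gates.

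**Figure D2:**
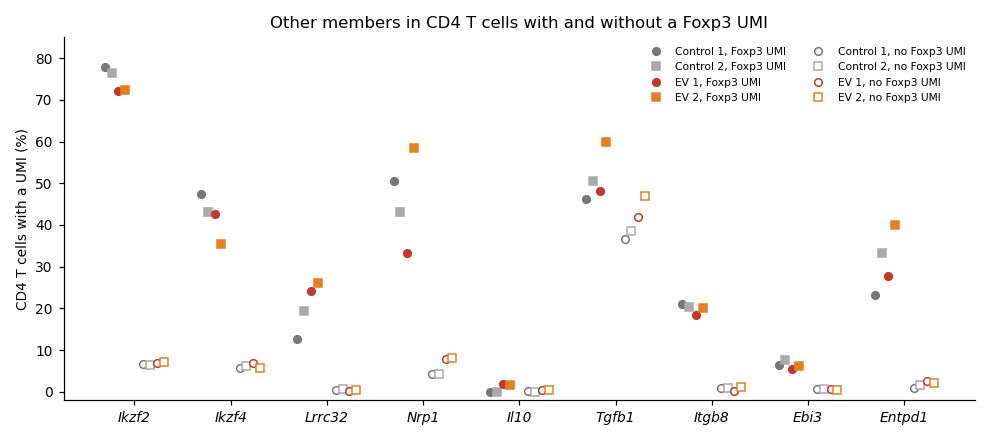
Percent of CD4 T cells with at least 1 UMI of each other member, in cells with (filled) and without (open) a Foxp3 UMI, by library. Ikzf2 lies at 72.2% to 77.9% in the first and 6.53% to 7.07% in the second in all 4 libraries, while Tgfb1 is common in both.

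The share of CD4 T cells with a Foxp3 UMI was not higher in EV than in Control. It was 6.87% and 5.73% in Control and 5.85% and 5.13% in EV, with exact 95% binomial intervals of 5.59% to 8.33%, 4.65% to 6.97%, 4.43% to 7.56% and 3.98% to 6.49%. The means were 6.30% ± 0.808 (SD, n = 2) and 5.49% ± 0.509 (SD, n = 2), and the groups overlapped (exact permutation test, two-sided, p = 0.667). With 2 libraries a group that test cannot go below 0.333. The share with an Il2ra UMI was 7.81% and 7.51% in Control and 7.26% and 7.58% in EV. The share with both was 4.92% and 3.94% in Control and 4.44% and 3.39% in EV. With the same cells thinned to 2000 UMIs each, in gates still drawn at full depth, the share with a Foxp3 UMI was 3.84% and 2.40% in Control and 3.03% and 2.53% in EV. With the gates drawn on the thinned counts as well it was 3.59% and 1.88% in Control and 3.07% and 1.75% in EV, on 261 to 531 CD4 T cells a library. Intervals cover counting error only.

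**Figure D3:**
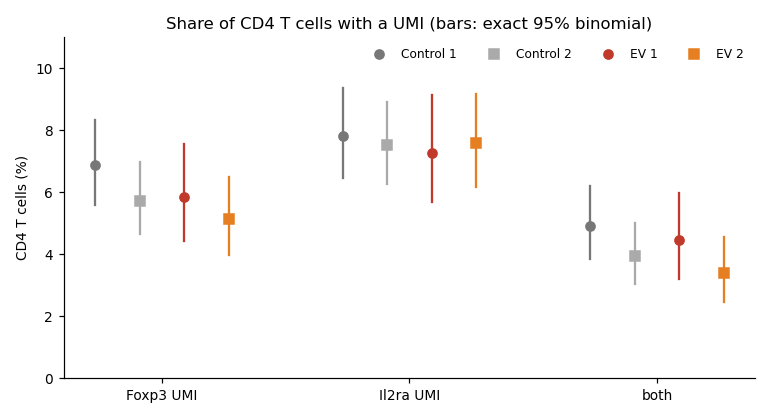
Percent of CD4 T cells with a Foxp3 UMI, an Il2ra UMI or both, by library, with exact 95% binomial intervals as bars. The intervals of all 4 libraries overlap for each of the 3 shares, and the EV points lie among or below the Control points.

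Of all kept cells, CD4 T cells with a Foxp3 UMI made up 1.17% and 1.18% in Control and 0.661% and 0.762% in EV (exact permutation test, two-sided, p = 0.333, the lowest possible). The groups did not overlap. Over the same cells CD4 T cells without an Il2ra UMI made up 15.7% and 19.0% in Control against 10.5% and 13.7% in EV, while B cells made up 37.0% and 31.7% in Control and 59.6% and 50.4% in EV. Shares of one total are tied to each other, so the lower share of all cells and the larger B cell share cannot be told apart.

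Foxp3 did not pass the test in any gate. In CD4 T cells with an Il2ra UMI its log2 fold change, EV against Control, was -0.08 (SE 0.24, 95% interval -0.63 to 0.47, adjusted p = 0.971 by edgeR). The EV values, 240 and 143 CPM, lay on either side of the Control values of 220 and 182 CPM. In CD4 T cells without an Il2ra UMI it had 6.01 and 5.35 CPM in Control against 4.17 and 5.49 in EV. The log2 fold change there was -0.21 (SE 0.26, 95% interval -0.78 to 0.35, adjusted p = 0.715 by edgeR). For CD8 T cells it was -0.63 (SE 0.56, adjusted p = 0.585 by edgeR), at 0.590 to 2.80 CPM. The intervals of both CD4 gates leave out a 2-fold rise, which would be a log2 fold change of 1, but not a smaller rise of 0.35 or 0.47. They bear on the Foxp3 level within a gate and not on how many cells the gate holds. A cell that gained Il2ra along with Foxp3 would move between the gates, and no fit joined both CD4 gates. These intervals therefore cannot decide whether cells were converted.

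**Figure D4:**
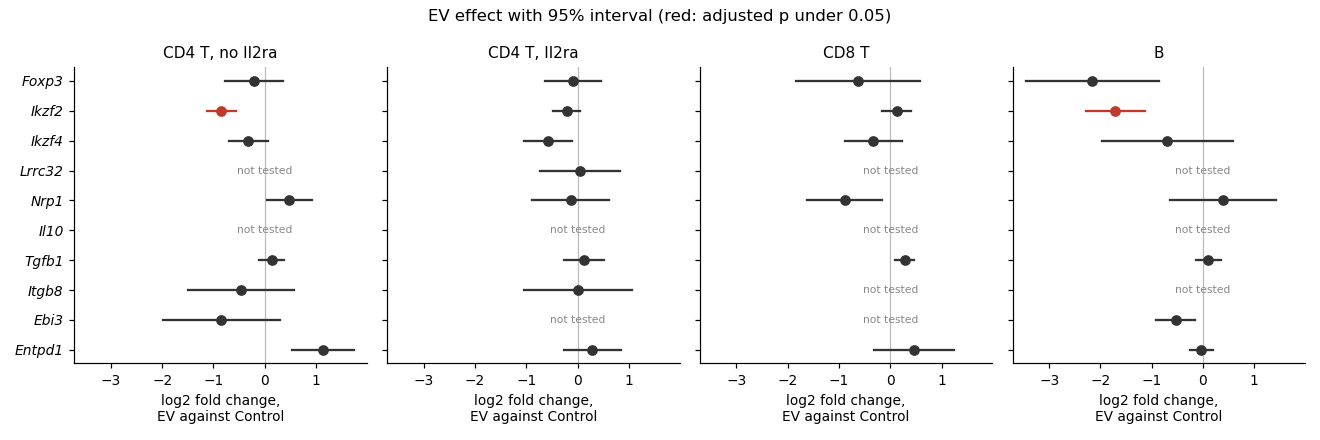
Log2 fold change of each member, EV against Control, with its 95% interval (lines) in the 4 gates, with red for an adjusted p under 0.05. Ikzf2 passed in CD4 T cells without an Il2ra UMI (-0.85) and in B cells (-1.71), and no other member passed in any gate.

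Over the members, 1 of 8 tested passed in CD4 T cells without an Il2ra UMI, 0 of 8 in those with one, 0 of 6 in CD8 T cells and 1 of 7 in B cells. Both calls were Ikzf2 and both were lower in EV. Of all genes tested, 2.29% passed in CD4 T cells without an Il2ra UMI, 0% in those with one, 2.2% in CD8 T cells and 2.55% in B cells. The members' median log2 fold change was -0.27, -0.04, -0.10 and -0.53 in these gates, beside medians of all tested genes between -0.002 and 0.006. In the Il2ra gate edgeR passed 0 of 7913 genes, 484 had an unadjusted p under 0.05, and DESeq2 passed 1. That gate held 67 to 122 cells a library, and 215 genes passed there without EV replicate 2. Nothing in the labels says that the 2 libraries of a group came from separate mice, although the study's methods call them biological replicates, so p-values measure the spread between these libraries.

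Ikzf2 was lower in EV in CD4 T cells without an Il2ra UMI. It had 96.6 and 92.7 CPM in Control against 43.0 and 61.0 in EV, and the gap between the groups exceeded the spread within either. Groups of 2 did not overlap for 49.7% of all genes tested in that gate, so the lack of overlap alone says little. The log2 fold change was -0.85 (SE 0.13, 95% interval -1.14 to -0.57, adjusted p = 0.00523 by edgeR). The share of cells with an Ikzf2 UMI did not move with it, at 6.20% and 5.79% in Control and 6.31% and 6.41% in EV. What differed was the number of UMIs in the cells that held one, with means of 9.96 and 11.6 in Control and 5.72 and 7.56 in EV. Cells with 10 or more Ikzf2 UMIs numbered 21 and 28 in Control and 9 and 16 in EV, and they held 80.8% and 84.2% of the gate's Ikzf2 UMIs in Control and 64.7% and 73.2% in EV. The value thus rests on few cells. It was -0.66 (edgeR adjusted p = 0.0248) once every cell with a Foxp3 UMI was left out. Thinned to 2000 UMIs a cell in the same cells it was -0.64 (edgeR adjusted p = 0.0357), and with the gates drawn on the thinned counts -0.41 (edgeR adjusted p = 0.75), where the call is lost.

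In the Il2ra gate Ikzf2 stood at 1708 and 1622 CPM in Control against 1501 and 1379 in EV, a log2 fold change of -0.21 (SE 0.12, adjusted p = 0.869 by edgeR). There the UMIs per cell with one were 17.1 and 17.8 in Control and 21.6 and 20.3 in EV, while the share of cells with one was 74.1% and 68.9% in Control and 67.2% and 59.4% in EV. The cells of that gate were read at greater depth in EV, with a median of 8566 and 8086 UMIs against 6653 and 6744 in Control. The UMIs per cell were not scaled for this depth. The log2 fold change in CD8 T cells was 0.12 (SE 0.13, adjusted p = 0.653 by edgeR). The effect in CD8 T cells differed from that in CD4 T cells without an Il2ra UMI by 0.98 (SE 0.17, adjusted p = 0.0312 by edgeR), one of 0.0827% of tested genes with such a difference. Members that passed the same test of CD4 T cells with against without an Il2ra UMI numbered 0 of 9, where 0.00752% of all tested genes did.

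**Figure D5:**
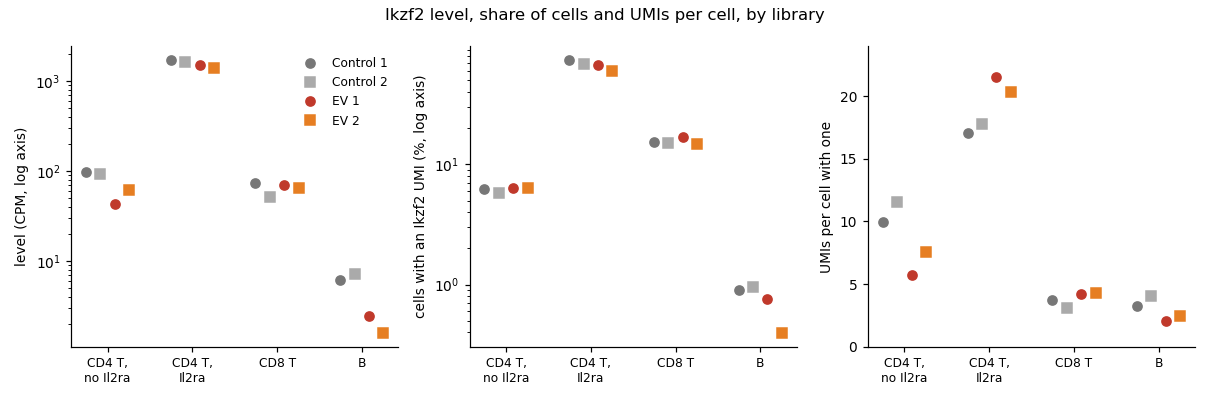
Ikzf2 in each library and gate, as its level (CPM, log axis), the percent of cells with an Ikzf2 UMI (log axis) and the mean UMIs in cells that held one. In CD4 T cells without an Il2ra UMI the EV level (43.0 and 61.0 CPM) is under Control (96.6 and 92.7 CPM) at a like share of cells, with 5.72 and 7.56 UMIs a cell against 9.96 and 11.6.

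In B cells Ikzf2 had 6.23 and 7.15 CPM in Control against 2.46 and 1.60 in EV, a log2 fold change of -1.71 (SE 0.25, adjusted p = 0.0144 by edgeR). This rested on 87 and 97 UMIs in Control and 75 and 42 in EV, and 2 cells of each Control library held 65.5% and 71.1% of them. The summed T cell markers of that gate moved the same way, at 94.4 and 82.3 CPM in Control against 48.8 and 49.5 in EV, and their part in the result was not tested. With stricter gates the value was -0.57 (edgeR adjusted p = 0.542), without the cells that held a Foxp3 UMI -0.76 (edgeR adjusted p = 0.324), and without predicted doublets -1.75 (edgeR adjusted p = 0.118). Foxp3 in B cells, at 0.788 and 0.663 CPM in Control against 0.197 and 0.114 in EV, did not pass the test (log2 fold change -2.16, SE 0.57, adjusted p = 0.09 by edgeR).

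Entpd1 had the smallest adjusted p among the members that missed the threshold. In CD4 T cells without an Il2ra UMI it had 2.82 and 3.50 CPM in Control against 6.12 and 7.85 in EV, without overlap, as for 49.7% of tested genes in that gate. The log2 fold change was 1.14 (SE 0.28, 95% interval 0.54 to 1.73), with an edgeR adjusted p of 0.0521, just outside the threshold. The counts behind it were 23 and 38 UMIs in Control and 44 and 73 in EV, in 16, 26, 20 and 27 cells. The share of cells with one was 1.25% and 1.73% in Control and 2.34% and 2.31% in EV. It passed with no filter on low counts (adjusted p = 0.00153 by edgeR) and with the replicate block (adjusted p = 0.00461 by edgeR), and DESeq2 gave an adjusted p of 0.258. The Il2ra gate had 46.3 and 59.7 CPM in Control against 60.3 and 69.0 in EV (log2 fold change 0.29, SE 0.25, adjusted p = 0.885 by edgeR). In B cells its log2 fold change was -0.03 (SE 0.10, adjusted p = 0.906 by edgeR). The B cell effect was lower than that in CD4 T cells without an Il2ra UMI by 1.18 on the log2 scale (log2 difference -1.18, SE 0.23, adjusted p = 0.0104 by edgeR). Such a difference passed for 1 of 9 tested members and 1.4% of all tested genes.

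Nrp1, which marks Tregs of thymic origin in mice, had 31.1 and 18.8 CPM in Control against 28.0 and 39.9 in EV in CD4 T cells without an Il2ra UMI. The groups overlapped as levels (log2 fold change 0.48, SE 0.21, adjusted p = 0.251 by edgeR). The share of those cells with an Nrp1 UMI did not overlap, at 4.31% and 3.79% in Control and 7.36% and 7.09% in EV. The shares of Ikzf2, Tgfb1 and Entpd1 in that gate did not overlap either and were higher in EV. Those of Foxp3 and Ebi3 did not overlap and were lower in EV. Such a lack of overlap in shares was not counted over all genes, so it is not read as a result about the members. As levels, the groups did not overlap for 49.7% of all genes tested in that gate. The EV cells were also read at greater depth. Thinned to 2000 UMIs in gates drawn at full depth the mean shares for Nrp1 were 2.16% ± 0.607 (SD, n = 2) in Control and 3.64% ± 1.02 (SD, n = 2) in EV. So thinned, the shares of Ikzf2, Tgfb1 and Ebi3 overlapped, while those of Foxp3, Nrp1 and Entpd1 still did not. Without the cells that held a Foxp3 UMI the log2 fold change of Nrp1 was 1.01 (edgeR adjusted p = 0.0062), past the threshold, and it also passed with the replicate block. With the gates drawn on thinned counts it turned to -0.40 (SE 0.30). Without Control replicate 1 it was 0.86 and without EV replicate 1 it was 0.72, and both passed, while it was 0.14 without Control replicate 2 and 0.20 without EV replicate 2. The EV libraries parted in the Il2ra gate, at 105 and 263 CPM around Control values of 204 and 207. CD8 T cells had 8.25 and 3.99 CPM in Control against 2.56 and 3.82 in EV (log2 fold change -0.89, SE 0.34, adjusted p = 0.192 by edgeR).

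Ikzf4, which works with Foxp3 in silencing target genes, did not pass the test in any gate. In the Il2ra gate it had 93.8 and 87.9 CPM in Control against 63.4 and 58.3 in EV, without overlap, as for 35.4% of tested genes in that gate (log2 fold change -0.58, SE 0.21, adjusted p = 0.8 by edgeR). CD4 T cells without an Il2ra UMI had 13.1 and 11.1 CPM in Control against 9.74 and 9.47 in EV (log2 fold change -0.33, SE 0.18, adjusted p = 0.356 by edgeR), and the value turned to 0.88 (SE 0.49) with the gates drawn on thinned counts. The log2 fold change was -0.33 in CD8 T cells and -0.69 in B cells, with an edgeR adjusted p of 0.522 and 0.544.

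The cytokine genes other than Il10 and the genes that handle latent transforming growth factor beta showed no call. Tgfb1 had 82.8 and 83.0 CPM in Control against 79.0 and 102 in EV in CD4 T cells without an Il2ra UMI, and its log2 fold change lay between 0.10 and 0.28 in all 4 gates. The value nearest the threshold was that of CD8 T cells, with 64.8 and 66.8 CPM in Control against 74.1 and 85.4 in EV (log2 fold change 0.28, SE 0.09, adjusted p = 0.126 by edgeR). Ebi3 had 9.31 and 8.77 CPM in Control against 5.60 and 6.91 in EV B cells (log2 fold change -0.53, SE 0.17, adjusted p = 0.139 by edgeR). Ebi3 in CD4 T cells without an Il2ra UMI had 1.72 and 1.20 CPM in Control against 0.834 and 0.753 in EV, on 14, 13, 6 and 7 UMIs. Itgb8 had 62.5 and 65.1 CPM in Control against 105 and 28.5 in EV in the Il2ra gate, and 2 cells of the first EV library held 54.4% of its 68 UMIs. Lrrc32 in that gate had a log2 fold change of 0.06 (SE 0.35, adjusted p = 0.987 by edgeR).

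Genes that work beside the members were counted from 3 lists. The lists were chosen with earlier results of these data known, so their counts are not independent evidence. Of 19 other Treg-associated genes, 14 passed the filter on low counts both with and without an Il2ra UMI. Of these, 13 were higher in CD4 T cells with one and 0 lower. Of all 7890 genes that passed in both gates, 24% differed in either direction, 941 higher and 949 lower. Lag3 was the one that did not differ past the threshold. Between EV and Control, 2 of 15 tested genes rose and 1 fell among CD4 T cells without an Il2ra UMI, where 2.29% of all tested genes passed. Izumo1r, the folate receptor of Tregs and of anergic and helper T cells, had 56.2 and 58.7 CPM in Control against 115 and 122 in EV (log2 fold change 1.04, SE 0.09, adjusted p = 0.000236 by edgeR). Lag3, an inhibitory receptor that interferon can raise, had 0.614 and 1.11 CPM in Control against 13.5 and 9.90 in EV (log2 fold change 3.68, SE 0.34, adjusted p = 0.000249 by edgeR). Capg, an actin-capping protein, had 44.6 and 43.4 CPM in Control against 29.2 and 29.5 in EV (log2 fold change -0.58, SE 0.11, adjusted p = 0.0147 by edgeR). None passed in the Il2ra gate, 0 of 18 tested, and Ctla4 there had 480 and 736 CPM in Control against 1024 and 528 in EV, with Icos at 275, 466, 729 and 350 CPM. In CD8 T cells Nt5e and Il2rb were higher and Socs2 lower, of 15 tested, where 2.2% of all tested genes passed. Socs2 had 1.21 and 2.50 CPM in Control against 0.0984 and 0.229 in EV. Both EV values lay at or under the level of 3 UMIs, which was 0.295 and 0.229 CPM in those libraries. Nt5e encodes CD73, which acts after CD39, and had 18.3 and 18.2 CPM in Control against 30.8 and 27.9 in EV. In B cells 0 of 12 tested passed.

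Of 16 partners and receptors of the members, 0 of 13 tested passed in each T cell gate, and Tgfbr2 and Il6st had the highest mean levels over the 4 libraries in CD4 T cells without an Il2ra UMI, with log2 fold changes of 0.11 and -0.03. In B cells 1 of 14 passed, where 2.55% of all tested genes did. This was Il12a, the other chain of interleukin-35, which had 36.5 and 32.6 CPM in Control against 18.2 and 14.8 in EV (log2 fold change -1.06, SE 0.12, adjusted p = 0.00603 by edgeR). Of 22 regulators of Foxp3, 1 of 22 tested was lower in CD4 T cells without an Il2ra UMI and 1 of 22 in CD8 T cells, and 0 were higher, a share near the 2.29% and 2.2% of all tested genes that passed there. Both calls were Cdk8, a gene that the study chose from these libraries, so its count is not independent evidence. Cdk8 in CD4 T cells without an Il2ra UMI had 823 and 473 CPM in Control against 267 and 81.0 in EV (log2 fold change -1.90, SE 0.38, adjusted p = 0.0235 by edgeR). Cdk8 was lower in each EV library than in either Control library in all 4 gates, a lack of overlap found for 35.4% to 51.8% of tested genes by gate. In B cells it had 717 and 410 CPM in Control against 260 and 89.5 in EV, and in CD8 T cells 750 and 451 against 261 and 91.0. Cdk8 thus stood at a like level in these gates within each library, and differed between the 2 libraries of a group. Its sister kinase Cdk19 had 135 and 129 CPM in Control against 108 and 128 in EV in CD4 T cells without an Il2ra UMI (log2 fold change -0.16, SE 0.10, adjusted p = 0.424 by edgeR). The lower CDK19 that the study reported was from qPCR of human CD4 T cells, which differs in species and measure. Il2ra itself had 505 and 557 CPM in Control against 503 and 571 in EV in the gate it defines.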

How the data were processed

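Single-cell libraries were made with the 10x 3′ v3.1 kit. The deposited counts are whole UMIs per gene and barcode, which the authors made with Cell Ranger 7.1.0 on mm10 per the labels. The annotation release and the handling of introns and strand are not given in the sources used here. Cells with 200 to 5000 genes, at most 20000 UMIs and under 10% mitochondrial UMIs were kept. Doublets stayed in, and Scrublet (scanpy 1.11.5) calls were used as an alternative.

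Raw UMIs were summed per library and gate and tested with edgeR 4.0.16 (quasi-likelihood, filterByExpr, TMM, Benjamini-Hochberg over all tested genes, adjusted p under 0.05). Levels are TMM-scaled CPM and are not divided by transcript length, since tags come from transcript ends. Differences between gates and between EV effects were fitted over 16 sums with libraries as blocks. Scripts were tested on simulated data. All members were named in each gate, and of the 3 lists every called gene or else the highest by CPM. The members and lists were chosen with earlier results of these data known. The study tested cells as replicates with a Wilcoxon test, which was run as an alternative. Same-numbered libraries were not paired: correlations of their deviations were -0.04 to 0.11 over 2 pairs. DESeq2 1.42.0, other size factors, filters, gates, thinning, a replicate block and left-out libraries were alternatives.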

Additional observations from a re-analysis of the deposited data

Results flagged for a closer look

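The EV effect on 2 members differed between gates by a test of the difference itself, with libraries as blocks. For Ikzf2 the effect in CD8 T cells exceeded that in CD4 T cells without an Il2ra UMI by 0.98 on the log2 scale (SE 0.17, adjusted p = 0.0312 by edgeR). Its log2 fold change was 0.12 in the former, with 73.1 and 51.8 CPM in Control against 70.6 and 65.0 in EV, and -0.85 in the latter. For Entpd1 the effect in B cells differed from that in CD4 T cells without an Il2ra UMI by -1.18 (SE 0.23, adjusted p = 0.0104 by edgeR). Its log2 fold change was -0.03 in B cells, on 454 to 937 UMIs a library, and 1.14 in the CD4 T cells, on 23 to 73 UMIs. Without Control replicate 2 the Ikzf2 difference was 0.76 (edgeR adjusted p = 0.713) and without EV replicate 1 it was 0.71 (edgeR adjusted p = 0.229), neither past the threshold. The Entpd1 difference was -1.07, -1.33 and -1.05 without Control replicate 1, Control replicate 2 and EV replicate 2, where the edgeR adjusted p was 0.233, 0.115 and 0.1. With the gates drawn on thinned counts it turned to 0.49 (SE 1.03).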

How the results depend on the processing

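Of 688 values of members recomputed under an alternative, 600 kept their direction and their side of the threshold. Most reversals were of values near 0. Drawing the gates on counts thinned to 2000 UMIs turned Ikzf4 to 0.88 and Nrp1 to -0.40 in CD4 T cells without an Il2ra UMI, Foxp3 to 0.21 in those with one, and the Entpd1 difference between B and CD4 T cells to 0.49 (SE 1.03). Thinned in the same cells, values in the Il2ra gate were 0.17 for Foxp3, -0.35 for Itgb8 and -0.32 for Entpd1. In that gate stricter gates gave -0.034 for Tgfb1 and -0.75 for Itgb8, an Il2ra cut at 2 UMIs gave -0.061 for Lrrc32 and -0.086 for Itgb8, and no upper limits gave -0.18 for Lrrc32. Itgb8 there was -0.0074 with the looser gate, -0.029 with library sizes of other genes and -0.11 with the replicate block. Without cells holding a Foxp3 UMI, an alternative chosen after seeing the data, Tgfb1 there was -0.011 and Ikzf2 in CD8 against CD4 T cells was 0.54. Ikzf2 in CD8 T cells was -0.023 with stricter gates, and Entpd1 in B cells was 0.0102 with no filter and 0.026 with no upper limits.

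Of members called in CD4 T cells without an Il2ra UMI (1), there were 3 with no filter, 3 with the replicate block (Ikzf2, Nrp1 and Entpd1), 3 without cells holding a Foxp3 UMI, 2 with no upper limits, 2 with the looser gate, and 0 with thinned gates and with the Wilcoxon test on cells. In CD8 T cells (0) there were 1 with no filter and 2 with the replicate block (Nrp1 and Tgfb1). In B cells (1) there were 3 with no filter, 3 with the replicate block (Foxp3, Ikzf2 and Ebi3), and 0 under either thinning, without doublets, with stricter or looser gates, without cells holding a Foxp3 UMI and with the Wilcoxon test. The Wilcoxon test asked for a UMI in at least 10% of cells. Ikzf2 did not reach this in CD4 T cells without an Il2ra UMI or in B cells, so the test could not keep its calls. Tgfb1 passed that test for EV replicate 2 but not EV replicate 1, in those gates and in CD8 T cells. The replicate block changed no other call of a member, and the libraries share only a number. Foxp3 passed in no T cell gate under any alternative that gave a value. Genes called over all ranged from 34 (gates drawn on thinned counts) to 1994 (without EV replicate 1) in CD4 T cells without an Il2ra UMI (267), 0 to 215 (without EV replicate 2) in those with one (0), 20 (gates drawn on thinned counts) to 2168 (without EV replicate 1) in CD8 T cells (270) and 97 (without Control replicate 1) to 2584 (without EV replicate 1) in B cells (338). The replicate block gave 805 and 1018 in CD4 T cells without an Il2ra UMI and CD8 T cells and 1182 in B cells. Counts of members called, here and with libraries left out, are not read as results about the members. The number of all genes called moved with the setting as well.

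Leaving out each library left 1 to 5 members called in CD4 T cells without an Il2ra UMI. The 5 came without EV replicate 1 (Ikzf2, Nrp1, Il10, Tgfb1 and Entpd1), Il10 on 16 UMIs of which 1 cell held 12. It left 0 to 1 in those with one (Nrp1 without EV replicate 2), 0 to 1 in CD8 T cells and 1 to 2 in B cells. Foxp3 ranged from -0.49 to 0.25 in the Il2ra gate and -1.58 to 0.34 in CD8 T cells. In the Il2ra gate Itgb8 ranged from -1.15 to 0.72, Lrrc32 from -0.46 to 0.39 and Nrp1 from -0.97 to 0.36. In CD4 T cells without an Il2ra UMI Itgb8 ranged from -1.86 to 0.15 and Tgfb1 from -0.068 to 0.31. In CD8 T cells Ikzf2 ranged from -0.11 to 0.39 and Entpd1 from -0.033 to 0.80, and Ikzf2 against CD4 T cells from -0.33 to 0.14. In B cells Nrp1 ranged from -0.083 to 0.76, Tgfb1 from -0.042 to 0.24 and Entpd1 from -0.11 to 0.052. These fits assume that the lone library varies like the other group. The difference in the share of CD4 T cells with an Il2ra UMI, -0.24 percentage points, was -0.84 on thinned gates, 0.47 with no upper limits, -0.0205 with the looser gate and 0.19 at 2 UMIs. The cause was not tested for any of these. Foxp3 and Il10 had no value where too few UMIs passed the filter.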

Other observations

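Cells outside the gates, with neither Cd3e nor Cd79a, also held some members. Among those with a Siglech UMI, a gene of plasmacytoid dendritic cells, 35 and 60 in Control and 40 and 29 in EV, an Ikzf2 UMI was found in 31.4% and 26.7% of Control and 35.0% and 31.0% of EV cells. In the same cells Nrp1 was found in 42.9% and 35.0% of Control and 27.5% and 44.8% of EV cells, and Entpd1 in 17.1% and 33.3% of Control and 40.0% and 31.0% of EV cells, while a Foxp3 UMI was held by 0, 1, 0 and 0 cells. Among cells with an Fscn1 UMI, a gene of migratory dendritic cells, 55 and 106 in Control and 73 and 69 in EV, Itgb8 was found in 14.5% and 15.1% of Control and 5.48% and 15.9% of EV cells, at 116 and 105 CPM in Control against 53.3 and 133 in EV, from raw UMIs. That is above its level in CD4 T cells without an Il2ra UMI in all 4 libraries. It is also above the level in the Il2ra gate in each library but the first EV library. No Fscn1 cell held a Foxp3 or Lrrc32 UMI. Among cells with a C1qa UMI, a macrophage gene, Tgfb1 was found in 18.9% and 20.8% of Control and 23.2% and 15.4% of EV cells, at a median depth of 987 to 1242 UMIs. No test was made on these cells, and the 3 sets are named by 1 gene each.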
